A study of Mus musculus with 48 samples.

Results

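The step from ZT20 to ZT0 covers the last 4 h of the subjective night, the end of the active phase of a nocturnal animal, in the liver of control mice. It was described with the 8 control libraries of these times among the 48 libraries of the series, 4 mice at ZT20 (mice 33, 35, 36 and 40) and 4 at ZT0 (mice 42, 45, 47 and 48), each library made from a separate mouse. Male C57BL/6 mice, 4 to 6 months old, were sampled at 6 times of the day to learn what loss of the clock gene Bmal1 after birth does to liver transcripts. The controls, named WT in the labels, were Bmal1 f/f littermates without Cre. The knockout mice (KO), used here only for the same step, were Bmal1 f/f-EsrCre and carried a Cre recombinase that is present throughout the body and acts after tamoxifen, so loss of Bmal1 was not limited to liver and cannot be told apart from an effect of Cre. Both genotypes took 5 mg tamoxifen a day by gavage for 5 days, waited 7 days, then were kept without light for 36 h until they were killed, still in the dark. The group-housed mice of the 4 groups belonged to the cage set with the letter C. Control mice 33 and 45 and KO mice 38 and 46 lived alone, and control mice 47 and 48 shared a cage.

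In the mammalian clock, BMAL1 forms a dimer with CLOCK or NPAS2 that binds E-box elements and activates genes, among them the Period and Cryptochrome repressors and the REV-ERB nuclear receptors. REV-ERB proteins in turn repress Bmal1 and other genes that carry ROR elements. In liver, clock output, feeding, body temperature and hormones together set the daily course of transcripts for metabolism, protein folding and secretion.

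Liver RNA was counted as reads per gene after poly-A selection, and the library kit keeps no strand information. Total counts per library were 33891338 to 33949693 at ZT20 and 33663327 to 33889209 at ZT0, and 17900 to 18774 genes had at least 1 count. Levels are given as CPM, counts relative to the total of their library, after TMM scaling. TMM factors were 0.969 to 1.02 at ZT20 and 1.05 to 1.14 at ZT0, so the scaling itself differed between the times. Arntl, the gene of BMAL1, lay at 35 to 47.8 CPM in the 8 control mice and at 5.06 to 25.6 CPM in the 8 KO mice of the same times, with no overlap. Hepatocyte markers summed to 31636 to 34316 CPM at ZT20 and 26387 to 32657 CPM at ZT0 and the pancreas and muscle genes Cpa1, Pnlip and Myh4 were at 0 in all 8. In bulk tissue, fewer cells of a type and less RNA per cell cannot be told apart.

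Between ZT20 and ZT0, 102 genes changed in control liver, which is 0.688% of the 14836 genes tested. They were called at an adjusted p under 0.05, the Benjamini-Hochberg value of edgeR's quasi-likelihood test over all genes tested. Of these, 32 (0.216%) were higher at ZT0, by 1.24 to 8.49-fold, and 70 (0.472%) were lower, by 1.23 to 5.04-fold. The change was at least 2-fold for 13 rises and 20 falls. The falls included clock genes, the growth factor receptor Egfr, the lipogenic factor Thrsp, the polyamine enzyme Odc1 and 7 chaperones, and Nr1d1 had the largest rise among genes of at least 5 CPM. The 4 values at ZT0 lay apart from the 4 at ZT20 for 21 of the 32 rises and 61 of the 70 falls, against 1359 (9.16%) of all genes tested. At an unadjusted p under 0.05 there were 2603 genes (17.5%), 1234 higher and 1369 lower, and the median log2 fold change of all genes was 0.0045.

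The mice differed in how far they had moved. In the first principal component of the 8 libraries, which carried 42.8% of their variance, the ZT20 mice lay at 1.74 to 31.4 and the ZT0 mice 45, 47 and 48 at -11.4 to -51.8. Mouse 42, of ZT0, lay at 7.62, among the ZT20 mice. It was the highest of the 4 ZT0 mice for 61 of the 70 falls and the lowest for 20 of the 32 rises. Mouse 48 was the lowest for 57 falls and the highest for 24 rises, and among the ZT20 mice mouse 40 was the lowest for 54 falls and the highest for 23 rises. Mouse 45 stood apart in acute phase genes, with Saa2, serum amyloid A, at 2586 CPM against 32.8 to 230 in the other 7, and Lcn2, lipocalin 2, at 710 CPM against 15 to 99.8.

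The number of calls therefore depended on single mice. Without mouse 42 the same test called 316 genes higher and 365 lower, and without mouse 48 it called 0 higher and 2 lower (Cry2 and Fgf1), with 1364 genes at an unadjusted p under 0.05. Leaving out mouse 33, 35, 36, 45 or 47 left 0 to 18 rises and 4 to 21 falls, and leaving out mouse 40 gave 73 and 111. Fgf1 was the only named gene called in all 8 of these fits, Cry2 was called in 7 and Odc1 in 6. With only the 8 control libraries in the fit no gene was called, while 2451 had an unadjusted p under 0.05. DESeq2 called 126 rises and 228 falls, all 102 genes among them. All 102 were also among the 681 called without mouse 42.

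**Figure D1:**
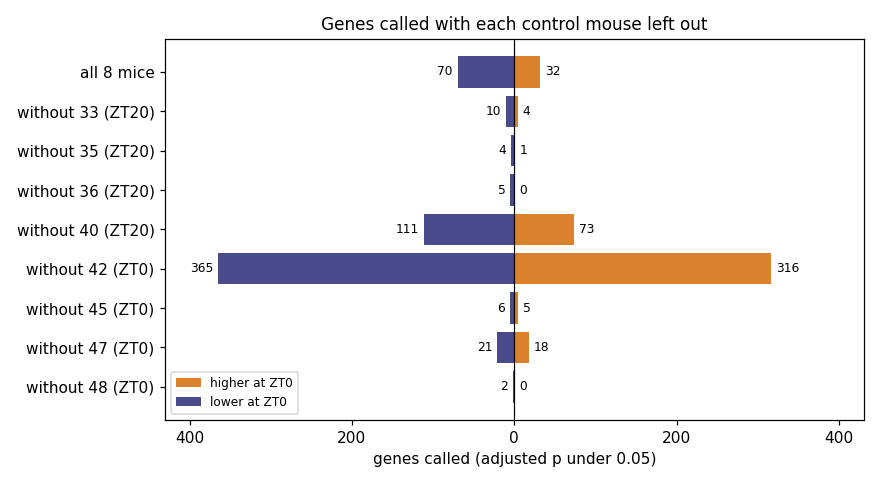
Number of genes called lower (left) and higher (right) at ZT0 in control liver with all 8 mice and with each mouse left out, at an adjusted p under 0.05 (horizontal axis, genes). The bars run from 2 genes without mouse 48 to 681 without mouse 42, against 102 with all mice.

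Among the clock genes, the E-box targets moved mostly downward. Of 15 E-box clock targets, 4 fell (Cry2, Bhlhe40 and Per2 among them) and 1 rose (Nr1d1), 13 had a log2 fold change below 0 (49.2% of all genes did), and the median was -1.13 against 0.0045 for all genes. At an unadjusted p under 0.05, 10 were lower and 2 higher, against 9.23% and 8.32% of all genes. None of the 5 clock genes under REV-ERB and ROR control (Arntl, Clock, Npas2, Cry1 and Nfil3) was called by edgeR or DESeq2, and 1 of them had an unadjusted p under 0.05.

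Among the repressors, Per2 (chr1:93312561-93355907, build mm9), whose protein with cryptochromes inhibits BMAL1, stood at 23.7, 33.0, 43.3 and 8.69 CPM in mice 33, 35, 36 and 40 at ZT20. At ZT0 it stood at 19.8, 4.04, 7.01 and 2.81 CPM in mice 42, 45, 47 and 48. Mice 40 and 42 made the groups overlap, and the fall was 1.69 ± 0.41 (SE) on the log2 scale, 3.23-fold, with an adjusted p of 0.0405. Cry2 (chr2:92243803-92274200), a cryptochrome, was at 43.8, 49.4, 53.6 and 40 CPM and then at 30.4, 29.3, 29.5 and 34.4 CPM. Here mouse 42 lay with the other ZT0 mice and the groups did not overlap (fell by 0.59 ± 0.10 on the log2 scale, adjusted p = 0.00697). On the genome Cry2 overlaps the predicted gene D930015M05Rik, and without strand the shared reads cannot be assigned.

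Bhlhe40 (chr6:108610623-108616919), which encodes the E-box repressor DEC1, was at 100, 122, 129 and 89.1 CPM at ZT20. In mouse 42 it was still at 86.8 CPM, while the other ZT0 mice had 30.9, 30.5 and 38.6 CPM. It fell by 1.24 ± 0.29 on the log2 scale (adjusted p = 0.0362).

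Nr1d1 (chr11:98629246-98636647), which encodes REV-ERBα, was the clock gene that rose. Its level was 1.95, 3.22, 2.48 and 7.94 CPM at ZT20 and 2, 27.8, 29.9 and 51.9 CPM at ZT0. Mouse 42 thus had the level of the ZT20 mice, while the other 3 stood above all of them. The log2 fold change was 2.84 ± 0.70, 7.15-fold, with an adjusted p of 0.0437. The gene overlaps Thra on the genome, and without strand the reads of the shared stretch cannot be assigned. Nr1d2, which encodes REV-ERBβ, went from 15.5, 14.4, 21.4 and 24.6 CPM to 14.3, 32.6, 27 and 59.1 CPM and was not called (log2 fold change 0.81 ± 0.35, adjusted p = 0.223).

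Other E-box targets had similar signs and missed the threshold. Usp2, a deubiquitinase, was at 27.1, 28.5, 40.4 and 18.3 CPM and then at 25.5, 7.81, 9.81 and 4.70 CPM, with overlap through mice 40 and 42 (log2 fold change -1.26 ± 0.33, adjusted p = 0.0563). Tef, a PAR bZIP output factor, had a log2 fold change of -0.89 ± 0.25 (adjusted p = 0.0742) with no overlap, and Per1 and Per3 had -1.61 and -1.34 (adjusted p = 0.107 and 0.147). Wee1, the mitotic kinase, had -1.11 (adjusted p = 0.106). Dbp, also a PAR bZIP factor, was low at both times, with 2.19, 2.58, 2.51 and 1.21 CPM at ZT20 and 0.648, 0.642, 0.522 and 2.08 CPM at ZT0 (adjusted p = 0.601). Of the remaining 3 targets, Bhlhe41, Hlf and Gm129 had log2 fold changes of -1.13, -0.21 and -1.47 with adjusted p of 0.28, 0.368 and 0.526.

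The activators were near level. Arntl was at 47.8, 44.9, 39 and 44.1 CPM and then 47.5, 38, 37.3 and 35 CPM (log2 fold change -0.16 ± 0.46, adjusted p = 0.896). Clock had a log2 fold change of 0.05 ± 0.23 and Npas2 one of 0.15 ± 0.55, and the REV-ERB target Nfil3 had -0.15 ± 0.27. These intervals are wide enough that the test does not show the genes to be unchanged. Cry1, which is under both kinds of control, was at 56.8, 65.7, 65 and 35.8 CPM at ZT20 and at 54.3, 14, 26 and 12.9 CPM at ZT0 (log2 fold change -1.06 ± 0.38, adjusted p = 0.141). Of 11 other clock components, 6 had a log2 fold change below 0 and 5 above, with a median of -0.0164 and 0 called. At an unadjusted p under 0.05, 1 was lower and 1 higher, and 1 had all ZT0 values below ZT20 and 1 all above. Csnk1d, a kinase of PER proteins from this list, was lower in every ZT0 mouse at a log2 fold change of -0.23 ± 0.06 (adjusted p = 0.0595).

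**Figure D2:**
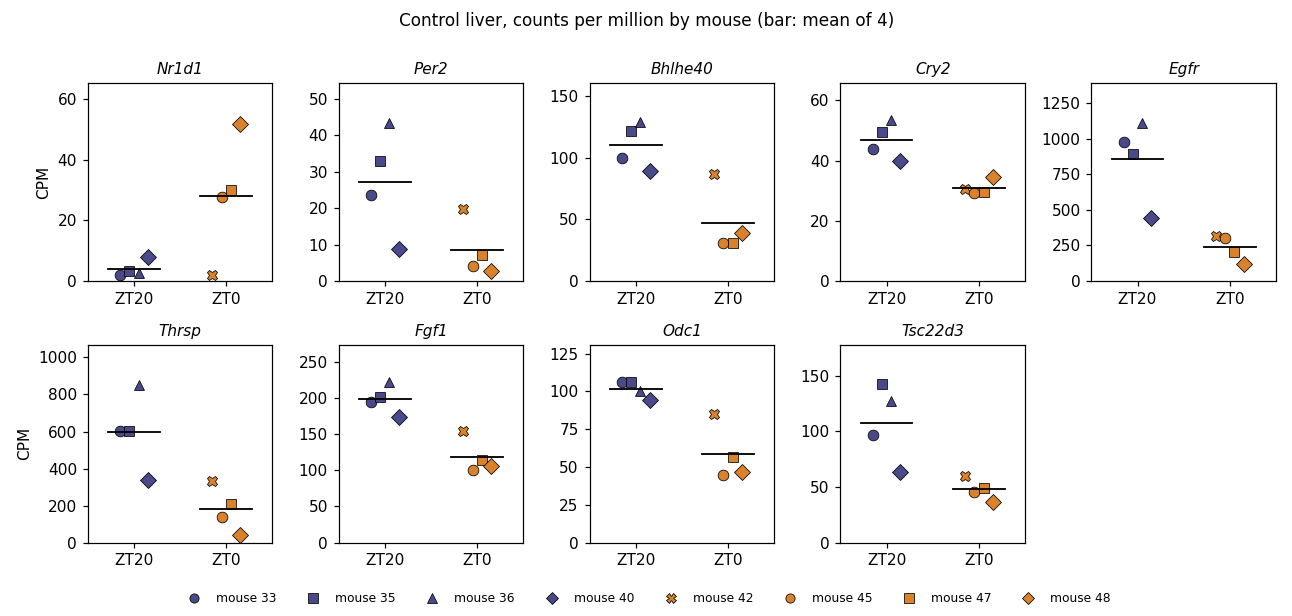
Level of 9 genes called between ZT20 and ZT0 in control liver, in CPM on linear axes from 0, 1 point per mouse with a bar at the mean of 4 mice. Mouse 42 (orange cross) stands with the ZT20 mice for Nr1d1, at 2 CPM, and with the other ZT0 mice for Cry2, at 30.4 CPM.

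The falls outside the clock held several enzymes and signalling genes with high levels. Egfr (chr11:16652206-16818161), the receptor tyrosine kinase for epidermal growth factor, was at 977, 894, 1109 and 444 CPM at ZT20. At ZT0 the 4 mice had 318, 305, 205 and 118 CPM, all below the lowest ZT20 mouse. The fall was 1.86 ± 0.40 on the log2 scale, 3.62-fold (adjusted p = 0.0207). Fgf1, a fibroblast growth factor that liver also expresses, had the smallest p of all genes, with an adjusted p of 0.00121. It fell from 194, 202, 222 and 174 CPM to 155, 101, 114 and 106 CPM, a fall of 0.74 ± 0.11 on the log2 scale with no overlap. On the genome Fgf1 overlaps Arhgap26 and Egfr overlaps the predicted gene E230015J15Rik, and without strand the shared reads cannot be assigned.

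Odc1 (chr12:17551679-17558308), ornithine decarboxylase, the rate-limiting enzyme of polyamine synthesis, was at 106, 106, 100 and 94.6 CPM and then at 84.9, 44.8, 56.7 and 46.8 CPM. The groups did not overlap, and mouse 42 was again the ZT0 mouse nearest to ZT20 (fell by 0.80 ± 0.14 on the log2 scale, adjusted p = 0.00955). Thrsp (chr7:104561448-104566240), a factor of lipogenesis in liver, was at 601, 605, 850 and 340 CPM at ZT20. At ZT0 it was at 332, 139, 208 and 41.6 CPM, lower in every mouse (fell by 1.73 ± 0.44 on the log2 scale, adjusted p = 0.0479). It was the only gene of 24 on the list for fatty acid synthesis that was called.

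Tsc22d3, which encodes the glucocorticoid-induced protein GILZ, was at 96.5, 143, 127 and 63.9 CPM and then at 59.9, 45.4, 49.4 and 36.9 CPM. The groups did not overlap, and mice 40 and 42 lay next to each other at the border (fell by 1.17 ± 0.29 on the log2 scale, adjusted p = 0.0437). Klf15, a transcription factor of gluconeogenesis and amino acid use, fell from 148, 165, 142 and 132 CPM to 98.7, 89.9, 105 and 79 CPM (0.65 ± 0.16 on the log2 scale, adjusted p = 0.0437). Gde1, a glycerophosphodiester phosphodiesterase, fell from 56.6, 61.2, 60.3 and 40.9 CPM to 38.7, 29.1, 38.2 and 27.2 CPM (0.72 ± 0.13 on the log2 scale, adjusted p = 0.00955). In Klf15 and Gde1 too, every ZT0 mouse was below every ZT20 mouse.

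The largest fall by fold among genes of at least 5 CPM was that of Zbtb7c, a zinc finger transcription factor, from 7.67, 11.7, 3.82 and 2.22 CPM to 1.10, 1.87, 1.81 and 1.30 CPM (fell by 2.06 ± 0.50 on the log2 scale, adjusted p = 0.0405). The ZT20 mice themselves spread over 2.22 to 11.7 CPM. Fam47e and Keg1 fell by 1.47 ± 0.30 and 1.10 ± 0.25 on the log2 scale (adjusted p = 0.016 and 0.0362). Pycrl, of proline synthesis, fell by 0.61 ± 0.12 (adjusted p = 0.0112), and Sar1b, the GTPase of the COPII coat, by 0.50 ± 0.10 (adjusted p = 0.0182). Each of these 4 had no overlap between the times.

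Detoxifying enzymes had few calls. Of 32 genes for xenobiotic metabolism, 1 was called lower (0.472% of all genes) and 29 had a log2 fold change below 0 (49.2% of all genes). The median was -0.296, and 9 had an unadjusted p under 0.05 on the lower side (9.23% of all genes). In the KO step 9 were lower at an unadjusted p under 0.05, against 383 of all 14836 genes. Gsta3, a glutathione transferase, was the only called gene of 32 for xenobiotic metabolism, at 2179, 2189, 1917 and 1938 CPM and then 1744, 1082, 1378 and 984 CPM (fell by 0.66 ± 0.15 on the log2 scale, adjusted p = 0.0357). Every ZT0 mouse was lower. Cyp2d40, a cytochrome P450, fell by 0.96 ± 0.23 (adjusted p = 0.0405), and Sfi1, of the centrosome, by 0.60 ± 0.15 (adjusted p = 0.0479). Gsta3, Cyp2d40 and Apol9a with Apol9b have close relatives, with which reads may be shared, and Sfi1 overlaps 3 other genes.

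Further falls touched a monooxygenase and proteins of transport, signalling and mitochondria, each lower in every ZT0 mouse. Fmo5, a flavin monooxygenase, was at 1180, 1229, 1024 and 886 CPM and then at 742, 541, 702 and 456 CPM (fell by 0.82 ± 0.19 on the log2 scale, adjusted p = 0.0374). Adipor2, a receptor of adiponectin, was at 834, 839, 784 and 753 CPM and then at 639, 535, 554 and 421 CPM (fell by 0.58 ± 0.15, adjusted p = 0.0495). Thrb, the thyroid hormone receptor β, was at 54.6 to 66.1 CPM and then at 43.1 to 45.4 CPM, and there mouse 42 did not stand apart. The mitochondrial ribosomal proteins Mrps22, Mrpl21 and Mrpl19 fell by 0.35, 0.36 and 0.36 on the log2 scale, and Slc17a3, a phosphate and urate transporter, by 0.78 (adjusted p = 0.0122). Crem, a cAMP-responsive transcription factor, fell by 0.60, and Ran, the GTPase of nuclear transport, by 0.32. Of the 102 calls, 3 rises and 7 falls were predicted genes.

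The list of chaperones, which holds cytosolic ones and the mitochondrial Hspe1 and Hspd1, had the most calls. Of its 32 genes, 7 fell and none rose, against 0.472% of all genes for falls, 25 had a log2 fold change below 0, and 18 had an unadjusted p under 0.05 on the lower side (9.23% of all genes). The 4 values at ZT0 were all below those at ZT20 for 11 of 32, against 5.46% of all genes. The median log2 fold change was -0.21. The lists were chosen with earlier results of these data known, so these shares describe the list and are not a test of it. With total counts in place of TMM factors 4 of the 32 fell, 22 were below 0 and the median was -0.09.

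Hsp90aa1 (chr12:111928815-111940938), the inducible HSP90, was at 289, 298, 371 and 251 CPM at ZT20 and at 265, 114, 150 and 97.8 CPM at ZT0. Mouse 42 lay inside the range of ZT20 and the other 3 lay far below it (fell by 0.95 ± 0.21 on the log2 scale, adjusted p = 0.0282). Hsp90ab1, the constitutive HSP90, was at 1250, 1288, 1281 and 1130 CPM and then at 1038, 842, 848 and 787 CPM. It fell by 0.49 ± 0.12 with no overlap (adjusted p = 0.0464). Ahsa1 (chr12:88607696-88614947), which activates the ATPase of HSP90, fell from 103, 102, 107 and 93.2 CPM to 87.3, 64, 76.7 and 54.8 CPM (0.52 ± 0.10 on the log2 scale, adjusted p = 0.0112).

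Hspb1 (chr5:136363789-136365433), the small heat shock protein HSP25, had the largest fold of the list. It fell from 28.2, 31.3, 26.7 and 16.8 CPM to 15.7, 8.12, 9.92 and 4.13 CPM (1.45 ± 0.32 on the log2 scale, adjusted p = 0.0317). The groups did not overlap, with mice 40 and 42 again at the border. Hspe1 (chr1:55144976-55148151), the mitochondrial co-chaperonin HSP10, fell from 166, 160, 163 and 149 CPM to 130, 110, 115 and 87.5 CPM (0.53 ± 0.12 on the log2 scale, adjusted p = 0.0357). Its locus overlaps that of Hspd1, the mitochondrial chaperonin HSP60, which was at 663, 594, 683 and 645 CPM and then at 593, 554, 506 and 460 CPM and was not called (adjusted p = 0.0901). Cct3 and Cct8, subunits of the chaperonin that folds actin and tubulin, fell by 0.45 ± 0.11 and 0.29 ± 0.07 on the log2 scale (adjusted p = 0.0437 and 0.0479).

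Of the 32, 7 had a log2 fold change above 0, and others below 0 were not called. Hsph1, an HSP110, was at 54.5, 53.2, 92.7 and 40.7 CPM and then at 86.6, 25.1, 49.3 and 20.5 CPM (log2 fold change -0.41, adjusted p = 0.42). Hspa8, the constitutive HSC70, was at 560 to 889 CPM at ZT20 and at 1227 CPM in mouse 42, 507 in mouse 45, 795 in mouse 47 and 497 in mouse 48. Mouse 42 had the highest level of the 8 mice for Hspa8, the inducible HSP70 gene Hspa1b (11.5 CPM against 3.38 to 6.68), the HSP40 gene Dnajb1 (35.3 against 15.7 to 26.3) and the co-chaperone gene Bag3 (54.1 against 20.7 to 36.6).

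**Figure D3:**
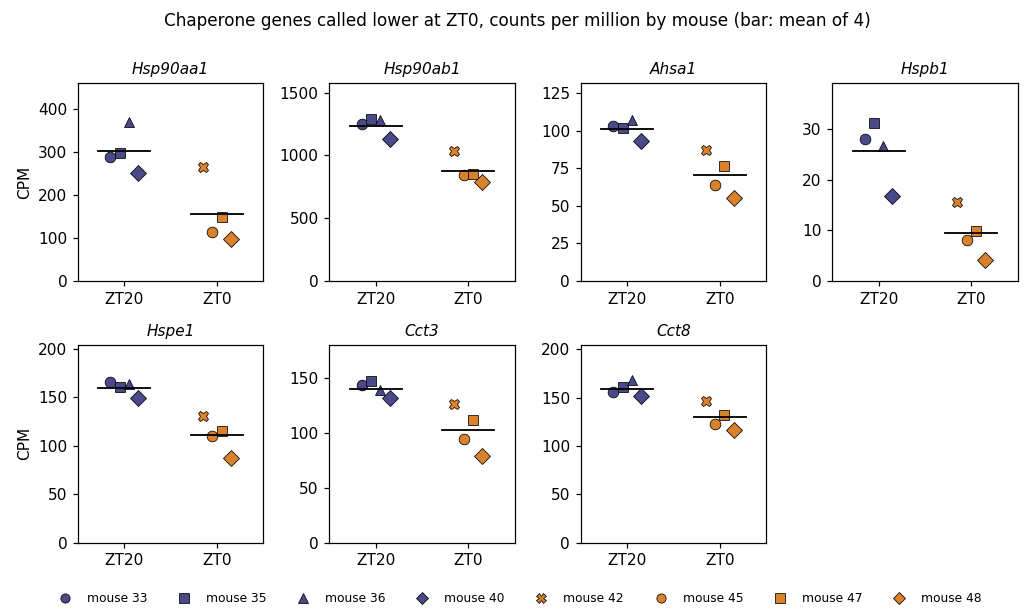
Level of the 7 chaperone genes called lower at ZT0 in control liver, in CPM on linear axes from 0, 1 point per mouse with a bar at the mean of 4 mice. Mouse 42 (orange cross) is the highest ZT0 mouse in all 7 panels, at 265 CPM for Hsp90aa1, and mouse 48 (orange diamond) the lowest.

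Heat shock factors bind repeats of GAA and TTC, and the promoters of the 32 chaperones were searched for them. The window was 250 bases before to 50 after the start in RefSeq's GRCm38.p6 annotation. A promoter was found for 25 of the 32 genes, and 4 of these (Hspe1, Hspd1, Hsph1 and Chordc1) held 3 units in a row, written GAANNTTCNNGAA or TTCNNGAANNTTC and read on both strands. Of all 32851 promoters in the table, 198 (0.603%) held the motif. Of the 5 called chaperones with a promoter, only Hspe1 held it, and the window of Hspd1 holds the same bases on the other strand. The promoters printed are that of the called gene, on the plus strand of chr1:55087898-55088197, and those of 2 of the 3 genes that held the motif and were not called, Chordc1 on the plus strand of chr9:18292017-18292316 and Hsph1 on the minus strand of chr5:149636287-149636586. Capitals mark the bases of the motif, where overlapping matches run together.
Hspe1: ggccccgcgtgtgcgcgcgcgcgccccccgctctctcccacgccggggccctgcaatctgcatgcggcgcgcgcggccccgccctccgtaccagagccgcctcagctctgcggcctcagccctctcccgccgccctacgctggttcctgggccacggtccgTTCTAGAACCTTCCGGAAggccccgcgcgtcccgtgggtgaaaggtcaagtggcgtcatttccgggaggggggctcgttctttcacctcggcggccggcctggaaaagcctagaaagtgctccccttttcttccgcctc
Chordc1: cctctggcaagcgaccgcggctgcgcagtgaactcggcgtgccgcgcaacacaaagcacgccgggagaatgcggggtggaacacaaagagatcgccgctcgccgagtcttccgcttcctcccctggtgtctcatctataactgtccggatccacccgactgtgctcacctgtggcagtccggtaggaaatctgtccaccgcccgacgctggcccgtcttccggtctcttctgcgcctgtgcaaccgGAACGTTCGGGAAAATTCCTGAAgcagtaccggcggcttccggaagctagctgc
Hsph1: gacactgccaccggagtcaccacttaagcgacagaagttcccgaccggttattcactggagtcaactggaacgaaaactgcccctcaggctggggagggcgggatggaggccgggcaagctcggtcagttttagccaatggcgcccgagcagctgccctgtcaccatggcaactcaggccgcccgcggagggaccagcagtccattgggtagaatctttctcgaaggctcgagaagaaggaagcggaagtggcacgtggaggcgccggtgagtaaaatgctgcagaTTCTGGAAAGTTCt

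A match of letters is not a bound site. Chordc1, a co-chaperone of HSP90 with 3 overlapping matches, was at 45.1, 40.6, 65.6 and 36.4 CPM at ZT20 and at 57, 33.7, 45.2 and 29.6 CPM at ZT0 (log2 fold change -0.18, adjusted p = 0.562). The E-box CACGTG stood in 2349 of the 32851 promoters (7.15%) and in those of 4 of the 11 E-box clock targets with a promoter in the table (Tef, Per1, Bhlhe41 and Gm129). The windows of Nr1d1 and Cry2, the 2 called genes among the 11, do not hold these letters.

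The rises were fewer. Atp6v0d2, a subunit of the vacuolar proton pump, was at 1.31, 0.73, 1.19 and 3.26 CPM at ZT20 and at 2.99, 6.86, 4.23 and 10.3 CPM at ZT0. Mice 40 and 42 made the groups overlap (log2 fold change 1.90 ± 0.46, adjusted p = 0.0405). Corin (chr5:72691264-72895779), a serine protease that activates natriuretic peptide, rose from 4.38, 4.01, 3.79 and 7.57 CPM to 9.36, 14.8, 8.93 and 26.1 CPM. The groups did not overlap (log2 fold change 1.58 ± 0.34, adjusted p = 0.0204).

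Mug2 (chr6:121956816-122035985), a murinoglobulin, which is a plasma protease inhibitor, was the most abundant gene that rose. It went from 809, 648, 810 and 955 CPM to 1257, 1663, 1707 and 1898 CPM, higher in every ZT0 mouse (log2 fold change 1.02 ± 0.26, adjusted p = 0.0495). Its reads may be shared with close relatives. Adamts7, a secreted metalloproteinase, rose from 14.4, 15.1, 10.2 and 14.3 CPM to 29.1, 27.7, 38.3 and 34 CPM (log2 fold change 1.26 ± 0.28, adjusted p = 0.0283). For Adamts7 mouse 42 was as high as its group, and the gene overlaps Tbc1d2b.

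Casp6 (chr3:129604343-129617021), an executioner caspase, was at 14.2, 12.6, 11.7 and 20.3 CPM and then at 17.9, 25.9, 21.9 and 34.5 CPM (log2 fold change 0.77 ± 0.16, adjusted p = 0.0182). Mice 40 and 42 overlapped. Intu, which works in planar cell polarity and cilia, was at 6.67, 6.99, 6.35 and 8.17 CPM and then at 7.78, 13.3, 14.2 and 13.5 CPM, with the same 2 mice overlapping (log2 fold change 0.79 ± 0.17, adjusted p = 0.0207). Nme7, of the nucleoside diphosphate kinase family, had the smallest p of the rises (log2 fold change 0.85 ± 0.16, adjusted p = 0.0112), and its 4.45 CPM in mouse 42 was just under the 4.56 CPM of mouse 40.

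Other genes that rose had various roles. Ace, the angiotensin converting enzyme, went from 1.16, 1.55, 1.37 and 1.24 CPM to 1.83, 4.57, 2.17 and 2.89 CPM (log2 fold change 1.11 ± 0.23, adjusted p = 0.0172). Ptpre, a tyrosine phosphatase, and Rab36, a small GTPase, had log2 fold changes of 0.81 ± 0.16 and 1.30 ± 0.27 (adjusted p = 0.0122 and 0.0182). Prex1, an exchange factor for Rac, went from 18.7, 18.8, 20.5 and 21.5 CPM to 29.4, 44.9, 32.6 and 26.3 CPM (log2 fold change 0.74 ± 0.17, adjusted p = 0.0337). Itga8, an integrin of stellate cells and other mesenchyme, had 0.69 ± 0.17 (adjusted p = 0.0479), Pcbp4, an RNA-binding protein, 0.70 ± 0.17 (adjusted p = 0.0399) and Col4a1, a collagen of basement membrane, 0.60 (adjusted p = 0.0495). Mfsd7c, a transporter of the major facilitator family, had 1.57 ± 0.39 (adjusted p = 0.0479), with 19.3 CPM in mouse 48 against 4.53 to 6.36 in the other ZT0 mice, and its groups overlapped. Myo18a, an unconventional myosin, rose from 153, 161, 157 and 166 CPM to 185, 263, 201 and 290 CPM (log2 fold change 0.56, adjusted p = 0.0337).

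Beside these rises, markers of some other cell types tended to stand higher at ZT0, with sums that overlapped between the times. Their part in the rises was not tested. The 12 Kupffer cell markers all had a log2 fold change above 0, with none called, and summed to 1203 to 1509 CPM at ZT20 and 1227 to 2232 CPM at ZT0. The 12 stellate and fibroblast markers, 8 of them above 0, summed to 624 to 710 and 654 to 796 CPM, and the 12 endothelial markers, 11 above 0, to 725 to 789 and 771 to 916 CPM. The 14 lymphocyte markers, 12 above 0, summed to 11.8 to 14.9 CPM and 12.2 to 35.5 CPM. At an unadjusted p under 0.05, 7 lymphocyte, 1 Kupffer, 2 stellate and 1 endothelial marker were higher (8.32% of all genes), and 0 lower. No marker of these lists was called by edgeR, and DESeq2 called 1 lymphocyte marker higher. Their median log2 fold changes in control and KO were 0.246 and 0.198 (Kupffer), 0.168 and -0.124 (stellate), 0.0756 and 0.0683 (endothelial), and 0.677 and 0.343 (lymphocyte). Cholangiocyte markers, 5 of 8 below 0, summed to 76.6 to 107 CPM at ZT20 and 66.4 to 94.9 CPM at ZT0. Neutrophil markers, 5 of 9 tested below 0, summed to 4.54 to 29.8 and 4.34 to 25.8 CPM. Erythroid markers, 6 of 7 tested above 0 and none called by edgeR, summed to 50.8 to 86.9 and 44.1 to 164 CPM. The median log2 fold change of the erythroid markers was 1.02 in control and -0.682 in KO. In control 0 of them had an unadjusted p under 0.05. The B cell genes Ms4a1 and Cd79a stood at 4.77 and 6.05 CPM in mouse 45 and at 4.60 and 5.56 CPM in mouse 48, against 0.79 to 2.58 CPM in the other 6 mice. Pax5, the B cell transcription factor, was among the called rises, from 0.122, 0.0912, 0.0583 and 0.173 CPM to 0.197, 0.948, 0.302 and 1.14 CPM (log2 fold change 2.51, adjusted p = 0.0437), and was likewise high in mice 45 and 48.

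A gene was taken as switched on where it was called at least 2-fold higher, its mean crossed 1 CPM from below and its groups did not overlap, and as switched off in the reverse case. By this rule 2 genes were switched on and 4 off. Pi15, a secreted peptidase inhibitor, went from 0.426, 0.395, 0.466 and 0.549 CPM to 0.902, 1, 0.742 and 2.13 CPM (log2 fold change 1.38 ± 0.34, adjusted p = 0.0437). The other was the predicted gene D930049A15Rik, at a mean of 0.295 CPM and then 1.07 CPM (adjusted p = 0.0182). Neither started from 0, so the step was an increase from a low level. For Pi15, only mouse 48 stood well above 1 CPM at ZT0.

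Lingo4, a leucine-rich repeat membrane protein, counted as switched off by this rule. It went from 2.47, 2.74, 3.21 and 2.54 CPM to 1.66, 0.948, 0.522 and 0.416 CPM (fell by 1.63 ± 0.39 on the log2 scale, adjusted p = 0.0405). It overlaps a predicted gene, and without strand the shared reads cannot be assigned. Fgf11, an intracellular member of the fibroblast growth factor family, went from 0.853, 1.09, 1.17 and 0.924 CPM to 0.818, 0.53, 0.302 and 0.286 CPM (fell by 1.06 ± 0.27 on the log2 scale, adjusted p = 0.0491). Neither Lingo4 nor Fgf11 reached 0 in a ZT0 mouse, and Lingo4 stayed above 1 CPM in mouse 42, so their step was a decrease to a low level. The predicted genes were Gm826, at a mean of 1.63 CPM and then 0.608 CPM (adjusted p = 0.00955), and BC021767, at 1.14 and 0.241 CPM (adjusted p = 0.0487). A line at 0.5 CPM in place of 1 CPM gave 4 on and 2 off.

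Larger folds occurred at low counts with overlap. Ces4a, a carboxylesterase, went from 3.32, 5.69, 3.06 and 1.04 CPM to 1.04, 0.558, 0.604 and 0.39 CPM, 5.04-fold, the largest fold of the falls (adjusted p = 0.0398). Zfp429, a zinc finger gene, went from 0.335, 0.152, 0.146 and 0.116 CPM to 0.0564, 2.29, 1.21 and 2.86 CPM, 8.49-fold, the largest of the rises (adjusted p = 0.0479). Mouse 42 was the lowest of all 8 for Zfp429. Both genes have close relatives, with which reads may be shared.

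Lists for carbohydrate and lipid metabolism stood mostly below 0 with few calls. Of 24 genes of fatty acid synthesis, 22 had a log2 fold change below 0, 1 was called and 12 had an unadjusted p under 0.05 on the lower side (9.23% of all genes), with a median of -0.45. Acacb, an acetyl-CoA carboxylase, was at 172, 179, 210 and 147 CPM and then at 122, 95.6, 66.8 and 45.3 CPM, with no overlap (log2 fold change -1.10 ± 0.31, adjusted p = 0.0701). Acly, ATP citrate lyase, was at 537, 597, 569 and 491 CPM and then at 469, 289, 345 and 200 CPM, also apart (-0.75 ± 0.25, adjusted p = 0.12).

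Of 23 genes of glucose and glycogen metabolism, 19 were below 0, none was called, 12 had an unadjusted p under 0.05 on the lower side (9.23% of all genes), and 10 had all ZT0 values below ZT20 (5.46% of all genes). DESeq2 called 4 of them lower. Gys2, liver glycogen synthase, was at 143, 147, 166 and 127 CPM and then at 112, 89.4, 97 and 101 CPM (log2 fold change -0.55 ± 0.14, adjusted p = 0.0502). Pygl, glycogen phosphorylase, and Gbe1, the branching enzyme, had -0.45 and -0.46 (adjusted p = 0.0595 for each). G6pc, glucose 6-phosphatase, was at 297, 536, 305 and 355 CPM and then at 187, 218, 175 and 149 CPM, all lower (-1.03 ± 0.41, adjusted p = 0.173), and in KO mice its log2 fold change was -0.99. Ppp1r3b, a subunit that targets phosphatase to glycogen, was at 659, 515, 672 and 381 CPM and then at 650 CPM in mouse 42 and 163, 291 and 167 CPM in the others (-0.81 ± 0.30, adjusted p = 0.148).

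All 24 tested genes of cholesterol synthesis and uptake had a log2 fold change below 0, with a median of -0.33, but none was called by edgeR or DESeq2 and 2 had an unadjusted p under 0.05 (9.23% of all genes on the lower side). Pmvk and Fdps, of the mevalonate pathway, had -0.64 ± 0.27 and -0.69 ± 0.33 (adjusted p = 0.217 and 0.258) with no overlap. The same list had a median of 0.37 in the KO step. Of 23 glucocorticoid-responsive genes, Tsc22d3 was called lower (0.472% of all genes) and 8 had an unadjusted p under 0.05 on the lower side (9.23% of all genes), while Mt1, a metallothionein, was at 9.47, 14.5, 28.4 and 21.1 CPM and then at 35.2, 151, 15.6 and 58.2 CPM (adjusted p = 0.245). Dusp1, a MAP kinase phosphatase that glucocorticoids induce, was lower in every ZT0 mouse (-1.19 ± 0.31, adjusted p = 0.0514). Acmsd, an enzyme at a branch of NAD synthesis from tryptophan, was at 31.2, 16.3, 28.2 and 24.8 CPM and then at 13.2, 8.37, 9.89 and 9.07 CPM (-1.31 ± 0.35, adjusted p = 0.0595).

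Small shifts ran through lists of protein turnover and respiration. All 32 tested nuclear genes of oxidative phosphorylation were below 0, 21 with an unadjusted p under 0.05 (9.23% of all genes on the lower side) and 16 with all ZT0 values below ZT20 (5.46% of all genes), and none was called by edgeR and 1 by DESeq2 (median -0.21). Cycs, cytochrome c, was at 104, 109, 103 and 95.9 CPM and then at 91.5, 73.8, 90 and 57.9 CPM (-0.39 ± 0.11, adjusted p = 0.0619). All 31 proteasome subunits were below 0, 17 with an unadjusted p under 0.05 (9.23% of all genes on the lower side) and none called by edgeR and 1 by DESeq2 (median -0.19), and all 40 ribosomal proteins were below 0 with a median of -0.09 and none at an unadjusted p under 0.05. These lists lie close to the scaling: with total counts alone the median of all genes moved from 0.0045 to 0.13, the ribosomal protein median turned to 0.03 with 8 of 40 below 0, and the medians of oxidative phosphorylation and the proteasome became -0.09 and -0.07. Under total counts 161 genes were called higher and 37 lower, against 32 and 70 with TMM, 69 of the 102 among them.

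Of 26 genes of the cell cycle and p53 list, none was called by edgeR and 1 was called lower by DESeq2. The log2 fold change was above 0 for 18 and below 0 for 8, with a median of 0.14, and 7 had an unadjusted p under 0.05 on the higher side (8.32% of all genes) and 7 had all ZT0 values above ZT20 (3.70% of all genes). These 7 were Ccnb2, Mki67, Ccnb1, Top2a, Ccnd1, Ccna2 and Cdk1, which are cyclins, a cyclin-dependent kinase and markers of dividing cells. Mki67 was at 3.50, 3.56, 4.46 and 5.43 CPM and then at 9.30, 10.4, 10.9 and 21.1 CPM (log2 fold change 1.61 ± 0.56, adjusted p = 0.137). Which cells carried these transcripts cannot be told from bulk tissue, and the part of the lymphocyte and Kupffer cells described above was not tested.

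The place of the step in the day was read from the 6 control groups, of which ZT4 and ZT8 and also ZT12 and ZT16 came from other cage sets, so cage set and time cannot be told apart there. For 23 of the 32 rises ZT0 was the highest of the 6 control means, and for 49 of the 70 falls it was the lowest, against 21.3% and 20.2% of all genes; the call itself favours this. Nr1d1 averaged 3.90 CPM ± 2.75 (SD, n = 4) at ZT20, 27.9 ± 20.4 at ZT0 and 135 ± 13.2 at ZT4, so ZT0 lay between the other 2. Per2 averaged 75.7 ± 1.70 CPM at ZT12, 60.6 ± 1.31 at ZT16, 27.2 ± 14.7 at ZT20, 8.42 ± 7.80 at ZT0 and 9.40 ± 3.82 at ZT4. Its spread was wide at ZT20 and ZT0 and narrow at ZT12 and ZT16.

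Hsp90aa1 had its highest mean at ZT16, 503 ± 33.0 CPM, and passed 302 ± 49.9 at ZT20 and 157 ± 75.7 at ZT0 toward 95.1 ± 9.28 at ZT8. Egfr had its highest mean at ZT20, 856 ± 288 CPM, and its lowest at ZT0, 237 ± 93.4, and averaged 507 ± 85.7 at ZT4. Corin, Mug2 and Adamts7 had their highest mean at ZT0, with 14.8 ± 7.99, 1631 ± 270 and 32.3 ± 4.85 CPM.

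**Figure D4:**
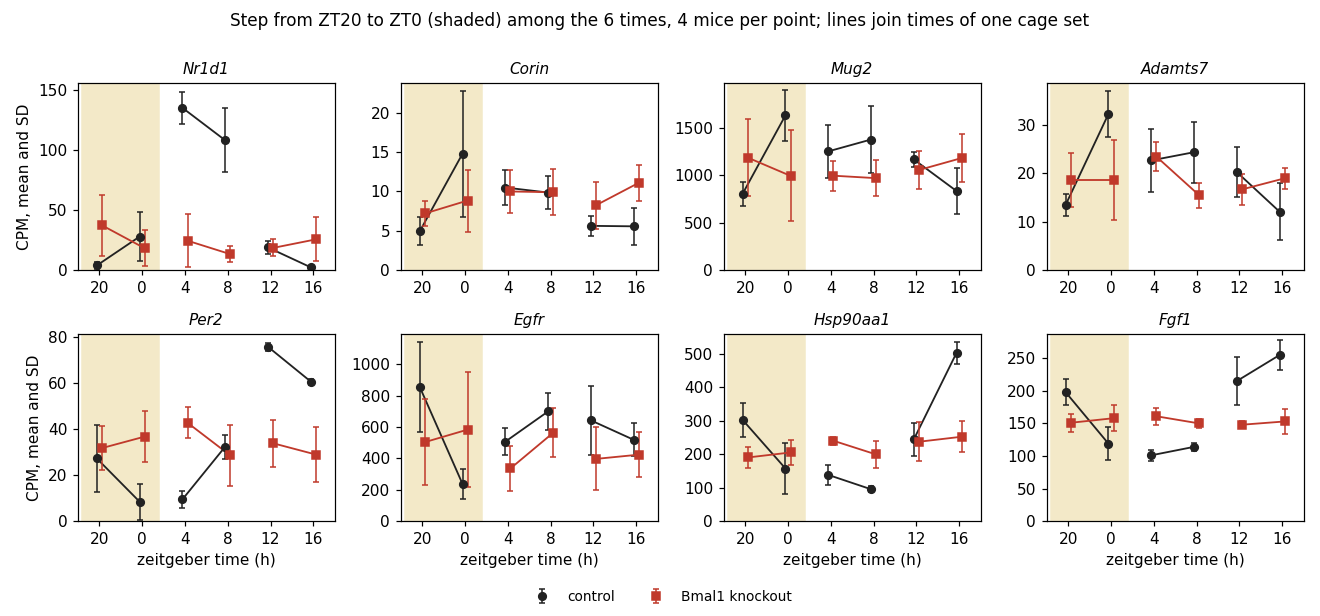
Mean and SD (error bars) of 4 mice in CPM for 8 genes at the 6 times of day (horizontal axis, zeitgeber hours) in control (black) and knockout (red) liver; lines join only times of one cage set and the band marks ZT20 and ZT0. Nr1d1 climbs from 3.90 to 27.9 CPM in the control step, while the knockout means are 37.3 and 18.2 CPM.

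The same hours in KO liver gave no call. None of the 14836 genes passed (0%), the smallest adjusted p was 0.752, DESeq2 also called none, and 788 genes (5.31%) had an unadjusted p under 0.05. The difference of the 2 steps was tested as a contrast of its own, and it called no gene either (0%), with a smallest adjusted p of 0.124 and 1193 genes (8.04%) at an unadjusted p under 0.05. DESeq2 called 14. No single gene was therefore shown by edgeR to step differently in the 2 genotypes when all mice were used. The genes called in control had a median log2 fold change of 0.80 (rises) and -0.64 (falls) there and of -0.02 in KO for both groups, and 18 of the 32 rises and 40 of the 70 falls were below 0 in KO, against 48.7% of all genes.

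Nr1d1 was at 44.1, 7.67, 29.4 and 67.9 CPM at ZT20 and at 6.85, 7.08, 20.7 and 38.2 CPM at ZT0 in KO mice, with overlap throughout. The difference of its 2 steps was 3.87 ± 0.94 on the log2 scale (unadjusted p = 0.000187, adjusted p = 0.198). Fgf1 was at 165, 150, 132 and 157 CPM and then at 137, 182, 167 and 146 CPM in KO mice, and the steps differed by -0.80 ± 0.16 (adjusted p = 0.124). Setdb2, a SET domain protein, shared that adjusted p, with a log2 fold change of 0.33 in control and -0.31 in KO. Dcun1d4, of cullin neddylation, had 0.42 and -0.26 (adjusted p of the difference 0.198), and D0H4S114 had -1.37 and 1.22 (0.198). The steps of Odc1, Hspe1, Sfi1 and Ace differed by -0.91 ± 0.20, -0.69 ± 0.17, -0.86 ± 0.21 and 1.29 ± 0.32, with adjusted p of 0.179 for Odc1 and 0.206 for the others.

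Hspb1 stood at 6.15, 5.75, 7.33 and 4.59 CPM in KO mice at ZT20, below all 4 control mice of that time, and at 2.77, 11.5, 10.9 and 7.63 CPM at ZT0 (difference of the steps -1.90 ± 0.46, adjusted p = 0.198). Egfr was at 879, 328, 533 and 277 CPM and then at 262, 1109, 549 and 417 CPM in KO mice, so mouse-to-mouse spread covered the control step (difference -2.07 ± 0.55, adjusted p = 0.235). Bhlhe40 had KO means of 107 CPM at ZT20 and 134 CPM at ZT0, and the difference of its steps was -1.56 ± 0.40 (adjusted p = 0.214).

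**Figure D5:**
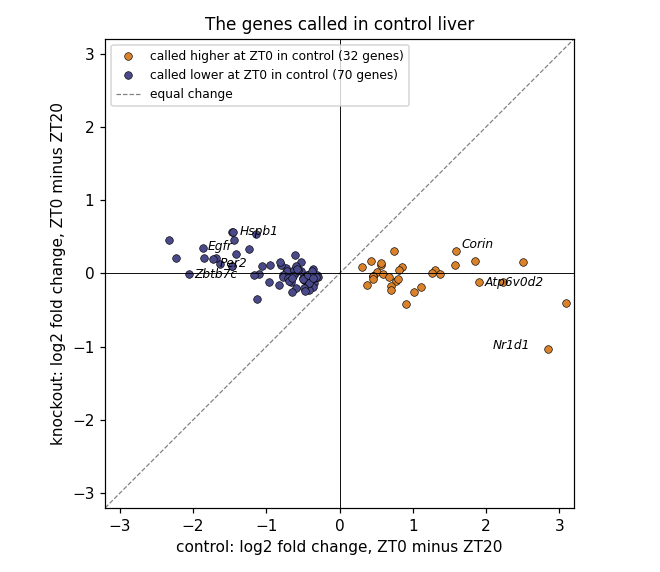
Log2 fold change of ZT0 minus ZT20 in control (horizontal) and knockout liver (vertical) for the 102 genes called in control, 32 higher (orange) and 70 lower (blue), with the dashed line at equal change. The genes were chosen on the horizontal axis; on the vertical axis they spread from -1.03 to 0.571.

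The labels put mouse 42 at ZT0, and nothing in the files used here checks its time or its label. Because it weighed on the number of calls, the step was also fitted without it, a fit in which 14979 genes were tested and ZT0 had 3 control mice. It called 316 genes higher (2.11%) and 365 lower (2.44%). Of the 32 chaperones 16 then fell, of the 15 E-box targets 8 fell and 1 rose, of the 23 glucose and glycogen genes 7 fell and of the 24 fatty acid synthesis genes 5 fell. Of the 14 lymphocyte markers 4 rose, and the REV-ERB target Cry1 fell.

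In that fit the control and KO steps differed for 36 genes (0.24%), 29 with a fall and 7 with a rise in control, and KO again had no call. Fgf1 and Odc1 led, with differences of -0.95 ± 0.15 and -1.14 ± 0.18 on the log2 scale (adjusted p = 0.00123 for both). Clock genes among the 36 included Usp2, Bhlhe40, Per2 and Nr1d1, with differences of -2.23 ± 0.41, -2.04 ± 0.37, -2.76 ± 0.52 and 4.27 ± 0.86 (adjusted p = 0.00608, 0.00608, 0.00763 and 0.0177). The chaperones were Hsp90aa1, Ahsa1, Hspb1 and Hspe1, with -1.43 ± 0.26, -0.66 ± 0.13, -2.25 ± 0.46 and -0.76 ± 0.17 (adjusted p = 0.00608, 0.0177, 0.0177 and 0.0336). Ppp1r3b, the glycogen-targeting subunit, differed by -2 ± 0.37 (adjusted p = 0.00608), with means of 555 and 208 CPM in control and 398 and 596 CPM in KO. Of the rises, Ace, Intu and Casp6 differed by 1.46 ± 0.32, 1.04 ± 0.23 and 1.01 ± 0.22 (adjusted p = 0.027, 0.027 and 0.0294). Leaving out any of the other 7 control mice gave no such gene, and leaving out KO mouse 41 gave 4. Mouse 42 was left out after its values had been seen. It lay nearer the ZT20 mean than the mean of the other ZT0 mice for 552 of the 681 genes called without it. Those genes were chosen by the other ZT0 mice, which favours such a place, and no other mouse was placed this way. Leaving mouse 42 out therefore tends to widen the control step and lower the adjusted p. These counts and adjusted p describe the other 15 mice of the 4 groups and are not an independent test of the difference.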

How the data were processed

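Liver poly-A RNA of 48 mice was sequenced with an unstranded kit. The labels list separate mice. Base calls came from CASAVA and reads were aligned with STAR 2.4.0f1 to mm9, per the submitters' processing notes; the tool that counted reads per gene is not given in the sources used here. The deposited table holds counts for 23732 genes, and 0 of its columns belonged to no sample. Totals were 33562272 to 34035644 per library, and this near-equal depth gave each library similar precision. Whether reads were subsampled before counting is not stated in the sources used here.

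Of these genes, 14836 passed edgeR's filter (minimum count 10). edgeR 4.0.16 (R 4.3.3) fitted 12 group means to all 48 libraries with TMM factors (36 residual degrees of freedom) and a quasi-likelihood test, and p-values were adjusted by Benjamini-Hochberg over all genes tested at a threshold of 0.05. limma 3.58.1 and DESeq2 1.42.0 served as alternatives, beside other scalings, filters, covariates, library sets and each mouse left out. Standard errors are of the log2 fold change.

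The test was run on simulated data with known changes before use. No replicates were duplicates: their differences were 30.4 to 130 times the counting variance. Body weights were 29 to 34 g at ZT20 and 27 to 32 g at ZT0.

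The members and the 41 gene lists were chosen with earlier results of these data known. Genes are named by rule: all members of both clock lists; the 12 largest rises and falls of at least 5 CPM; the 5 smallest p in each direction; genes switched on or off; the 10 smallest p of the difference between genotypes (at least 1 CPM); and up to 4 called and 2 other members of each list. Hsp90ab1, Cct3, Cct8, Pax5, Zfp429, Ces4a, Fmo5, Adipor2, Thrb, Mrps22, Mrpl21, Mrpl19, Slc17a3, Crem, Ran, Col4a1, Myo18a, Apol9a, Apol9b, the further chaperone, cell cycle, lymphocyte, acute phase and metabolic genes, the predicted genes and those of the fit without mouse 42 were chosen after their values were seen. Genes that overlap another gene are uncertain without strand, also where the overlap is not named above. 1 called gene is counted in the totals but not reported here.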

Additional observations from a re-analysis of the deposited data

Results flagged for a closer look

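Among 128 groups of 4 mice tested, 9 had 1 mouse whose gap to the nearest other mouse took up more of the group's range than Dixon's 95% critical value allows, and chance marks about 1 in 20 groups, or 6.4 here. At ZT20, Corin was highest in mouse 40, at 7.57 CPM against 3.79 to 4.38, Adamts7 was lowest in mouse 36, at 10.2 CPM against 14.3 to 15.1, and Pcbp4 was also lowest in mouse 36, at 6.21 CPM against 8.57 to 8.84. At ZT0, mouse 42 had the lowest Intu, 7.78 CPM against 13.3 to 14.2, and the highest Bhlhe40, 86.8 CPM against 30.5 to 38.6. It also had the highest Hlf, 79.7 CPM against 58.4 to 59.6, and the highest Clock, 131 CPM against 97.3 to 102. Mouse 48 had the highest Mfsd7c, 19.3 CPM against 4.53 to 6.36, and the highest Dbp, 2.08 CPM against 0.522 to 0.648.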

How the results depend on the processing

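Counts are given as rises and falls, against 32 and 70. They were 161 and 37 with total counts, 0 and 0 with the 8 control libraries alone, 126 and 228 with DESeq2, 168 and 219 without the 4 libraries farthest from their groups (chosen after seeing the data), and 0 and 5 at an adjusted p under 0.01; rises were 17 with no filter, 21 with housing as a covariate and 19 with voom and cage as a block. Genes of at least 2-fold, 13 and 20, became 29 rises with total counts, 6 rises with voom, 54 and 39 with DESeq2, 66 and 42 without those 4 libraries, 0 and 1 at 0.01, 23 and 41 at 1.5-fold, and 0 and 0 with the 8 control libraries. Genes switched on, 2, became 0 at 0.01 and with the 8 libraries, 1 with no filter, with a minimum mean of 1 CPM and with voom, 4 at a line of 0.5 CPM, 5 with total counts or 24 control libraries, 12 without the 4 libraries and 16 with DESeq2. Genes switched off, 4, became 1 at 0.01, 0 with the 8 libraries and 2 at a line of 0.5 CPM. They also became 2 with a minimum mean of 1 CPM, with body weight and with housing. The difference between genotypes, 0, became 14 with DESeq2.

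With each mouse left out, rises ranged over 0 to 316, falls over 2 to 365, 2-fold rises over 0 to 115, 2-fold falls over 0 to 68, genes on over 0 to 40, genes off over 0 to 7, KO calls over 0 to 0 and differences over 0 to 36. No called gene that is named changed sign, but with total counts rises outnumbered falls. For the 41 named genes called with all mice, 495 alternatives kept the call and 282 lost it; for the 18 not called, 25 gained one. Per2, Nr1d1, Thrsp, Egfr, Hsp90aa1 and Hspb1 each lost the call without any 1 of mice 33, 35, 36, 45, 47 and 48. Cry2 lost it without mouse 36 (adjusted p = 0.0546), and Odc1 without mouse 45 or 48. The cause was not tested. No paired analysis was possible because the ZT20 and ZT0 mice are different animals with no shared replicate number. Some cages joined control and KO mice of 1 time, and voom with cage as a random block gave 19 rises, 65 falls and 0 differences between genotypes. At 4 mice a group, smaller changes than those called may have been missed.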
